A study of Homo sapiens with 24 samples.

Results

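Intestinal epithelial cells are renewed from crypts, where stem and progenitor cells divide, and they differentiate as they move away from the crypt base. The homeobox factors CDX1 and CDX2 drive the intestinal programme, GATA6 and FOXA2 are endoderm factors that act with them, SOX9 marks crypt progenitors and Paneth cells, and ATOH1 commits cells to the secretory lineage. KRT20, VIL1, ALPI and ANPEP are products of differentiated absorptive cells, which carry a brush border of microvilli on the side of the gut lumen. HT29, an established human colon adenocarcinoma line, is often used to follow enterocyte differentiation in culture.

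These 10 genes were followed across 24 arrays of HT29 cells. They were taken by symbol, which gave 11 probes (2 for CDX1 and 1 for each of the others) among the 50599 probes and 36337 gene or transcript names of the array. Untreated cells (NT) were compared with cells exposed for 6 h to C3/C2 (30 mM propionate with 15 mM acetate), to SN (a DMEM culture supernatant of the dairy bacterium Propionibacterium freudenreichii, diluted 1/2), to TRAIL (a death receptor ligand, 100 ng/ml with 2 µg/ml of anti-Flag M2 antibody), to TRAIL+C3/C2 or to TRAIL+SN, with 4 arrays in each of the 6 groups. The mixture C3/C2 carries the main acids of the diluted supernatant, so SN against C3/C2 asks what the supernatant does beyond propionate and acetate. No group held anti-Flag antibody without TRAIL, so that both agents cannot be told apart. The methods give 2 independent experiments, each in duplicate, without saying which replicates are duplicates. Replicates 1 and 2, and 3 and 4, deviated together across groups (median correlation of residuals 0.14, against -0.164 between both sets), so p-values over 4 arrays measure a spread that is in part technical and may be too small. With these replicates averaged, which left 2 values per group and 6 residual degrees of freedom, the number of probes called in each comparison against NT was unchanged. The results below that then missed the adjusted p are given as such.

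Levels are given as the log2 of the spot intensity minus the log2 of the 75th percentile of its array, so that a level of 0 lies at that percentile. Differences are on the log2 scale, treated minus NT unless stated, with the standard error (SE) and the Benjamini-Hochberg adjusted p of limma over 27953 probes. A difference was called when the fold change was at least 2 and the adjusted p was under 0.05. Of the 11 probes, 9 probes of 8 genes passed the filter on dim probes and were tested, and ALPI and ATOH1 did not pass it. ANPEP passed through the groups in which it was high, and so did CA4, ABCB1, GATA5, SOX2, POU2F3 and INSM1 of the lists below. The p-values of these genes, and counts over probes or lists that hold them, describe the data and support nothing further.

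All levels and differences are relative to the rest of the array, and the choice of scale moved them. Against NT, the median of all probes was 0.07 in C3/C2, -0.01 in SN, 0.04 in TRAIL, 0.10 in TRAIL+C3/C2 and 0.05 in TRAIL+SN. With arrays scaled by their own median these values were -0.23, -0.14, 0.14, -0.24 and -0.15, and with scaling by the spike-in probes, which read control RNA, -0.11, 0.06, -0.24, -0.61 and -0.48. Where a gene's call or direction turned with the scale, the other value is given beside it.

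Every marker of an epithelial line fixed for this check (EPCAM, CDH1, KRT8, KRT18, KRT19, CDH17 and LGALS4) was well above background on 24 of 24 arrays. The summed level of these 7 markers lay between 9.89 and 10.12 in NT, C3/C2 and SN and between 10.37 and 10.51 in the 3 groups with TRAIL. Of 8 fibroblast and smooth muscle markers, COL1A2, COL3A1 and DCN were above background on no array and LUM on all of them, and the summed level of the list was -2.28 to -1.69 in NT, -2.34 to -1.84 in TRAIL, -0.76 to -0.32 in both groups with C3/C2 and -0.14 to 0.50 in both groups with SN. COL1A1, above background on 16 arrays, had the highest level of this list on any array (0.11, against -1.73 for LUM). The sum is over unlogged signals, so the brightest gene weighs most in it. Of 8 blood and endothelial markers, HBB was above background on no array and 6 were above it on all arrays, with a summed level of 2.14 to 2.59 in NT and TRAIL and 2.89 to 3.35 in the 4 groups with C3/C2 or SN. Of 7 markers of liver, pancreas and lung, NKX2-1 and AFP were above background on no array, and the list's summed level overlapped between NT and every other group. The part of these shifts in the results was not tested.

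C3/C2 was compared with NT within slides. SN, TRAIL and both co-treatments lay on other slides than NT, and SN lay on another slide than C3/C2. Each co-treatment likewise lay on another slide than C3/C2 or SN alone, so that slide and treatment cannot be told apart in any of these comparisons, while SN against TRAIL and TRAIL+SN against TRAIL+C3/C2 were each within a single slide. The 75th percentile of intensity ran from 745 to 1009 in NT and from 453 to 518 in TRAIL+C3/C2, the lowest group, and 49.8% to 57.8% of spots were well above background on an array. In a bulk culture, fewer cells expressing a gene and less of its RNA per cell cannot be told apart.

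The sequences behind the results are of 3 kinds. The first CDX1 probe, A_33_P3289848 (hg19, chr5:149563184-149563243, plus strand), is shown because it and the second CDX1 probe gave different answers. Its 60 bases read as 19 open codons that end in a stop codon, in capitals:

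CDX1: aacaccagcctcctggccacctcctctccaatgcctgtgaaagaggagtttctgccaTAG

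The second CDX1 probe, A_23_P58788 (chr5:149563427-149563486), lies downstream of that stop codon with 183 bases between both probes. The ANPEP probe is shown because its 60 bases are spread over 471 bases of the genome (chr15:90333766-90334236, minus strand), as those of a probe that crosses an exon junction are, and the ATOH1 probe (chr4:94750610-94750669, plus strand) because its gene was near the limit of detection:

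ANPEP: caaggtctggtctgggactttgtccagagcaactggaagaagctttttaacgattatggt
ATOH1: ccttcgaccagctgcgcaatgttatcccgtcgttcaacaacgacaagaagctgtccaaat

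The other probes lay at chr13:28536302-28536361 (CDX2), chr18:19781793-19781852 (GATA6), chr20:22562164-22562223 (FOXA2), chr17:70121841-70121900 (SOX9), chr17:39032532-39032591 (KRT20), chr2:219314095-219314154 (VIL1) and chr2:233323933-233323992 (ALPI), all on hg19. No annotation of that build was used here, so exons and untranslated regions are not assigned.

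The windows before the transcription start are shown for CDX2, KRT20 and ANPEP, which rose in the same 4 treatments. They are the 250 bases upstream of the start in RefSeq (GRCh38.p14), which had windows for 6 of the 10 genes (ANPEP with 2 starts), and none was used for CDX1, VIL1, SOX9 and FOXA2. Capitals mark matches to 4 motifs on either strand. The GC box was searched as GGGCGG. The core bound by CDX factors was searched as TTTATG. The core bound by GATA factors was searched as GATAA, and the TATA box as TATAAA. Matches may share bases, as the last 2 of the 4 GC boxes of ANPEP do.

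CDX2 (chr13:27969316-27969565, minus strand): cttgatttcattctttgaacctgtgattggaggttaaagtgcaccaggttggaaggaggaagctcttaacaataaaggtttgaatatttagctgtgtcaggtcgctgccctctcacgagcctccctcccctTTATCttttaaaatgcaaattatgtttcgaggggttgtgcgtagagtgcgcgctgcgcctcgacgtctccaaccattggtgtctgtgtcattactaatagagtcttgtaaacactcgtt
KRT20 (chr17:40885243-40885492, minus strand): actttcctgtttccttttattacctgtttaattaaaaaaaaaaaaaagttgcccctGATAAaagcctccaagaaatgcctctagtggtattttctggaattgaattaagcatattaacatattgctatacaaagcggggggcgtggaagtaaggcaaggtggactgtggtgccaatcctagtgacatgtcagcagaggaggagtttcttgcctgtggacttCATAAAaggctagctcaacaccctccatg
ANPEP, first start (chr15:89814853-89815102, minus strand): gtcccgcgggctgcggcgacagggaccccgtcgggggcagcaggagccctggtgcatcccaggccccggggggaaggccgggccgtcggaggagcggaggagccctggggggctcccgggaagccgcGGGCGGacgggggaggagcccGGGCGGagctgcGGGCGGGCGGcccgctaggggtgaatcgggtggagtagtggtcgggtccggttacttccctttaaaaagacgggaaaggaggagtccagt
ANPEP, second start (chr15:89806629-89806878, minus strand): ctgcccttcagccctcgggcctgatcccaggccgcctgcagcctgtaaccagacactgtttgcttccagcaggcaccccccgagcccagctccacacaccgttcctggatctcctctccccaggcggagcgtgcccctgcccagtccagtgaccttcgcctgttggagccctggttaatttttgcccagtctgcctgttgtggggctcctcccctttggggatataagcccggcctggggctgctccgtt

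The CDX2 window held 1 GATA motif and none of the other motifs. The KRT20 window held 1 CDX motif and 1 GATA motif. The first ANPEP window held 4 GC boxes and the second ANPEP window none of the motifs. Among 35116 windows of the same length, 42.6% held a GC box, 9.6% the CDX motif, 20.4% the GATA motif and 10.7% the TATA box. Of the other genes, ALPI had 1 GC box, and ATOH1 and GATA6 had no match. These are matches of letters and no evidence of binding.

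Across the 10 genes, C3/C2 and SN raised CDX2, KRT20, ANPEP and the second CDX1 probe and lowered GATA6, FOXA2 and SOX9, whereas TRAIL alone moved CDX2 and CDX1 by less than a fold of 2. With C3/C2, 2 of 9 probes were called higher (13.3% of all probes tested) and 1 was called lower (6.22%). With SN, 3 were called higher (14.1% of all probes) and 1 lower (9.69%). With TRAIL, limma called none of the 9 probes higher or lower (0.723% and 2.11% of all probes), while 3 had an unadjusted p under 0.05 and the same 3 passed the adjusted p. TRAIL+C3/C2 gave 2 calls higher (16.4% of all probes) and none lower (8.12%), and TRAIL+SN gave 3 higher (16.1%) and none lower (10.2%).

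At any size of difference, the adjusted p was passed by 5 probes higher and 4 lower with C3/C2 (34.9% and 28.3% of all probes), by 4 higher and 3 lower with SN (35.2% and 33.8%), by 1 higher and 2 lower with TRAIL (19.3% and 12.1%), by 4 higher and 3 lower with TRAIL+C3/C2 (40.2% and 29.4%) and by 4 higher and 4 lower with TRAIL+SN (37.8% and 32.6%). The median absolute difference over the 9 probes was 0.65, 0.56, 0.16, 0.71 and 0.58 in the same order, against 0.42, 0.51, 0.20, 0.50 and 0.54 over all probes tested.

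**Figure D1:**
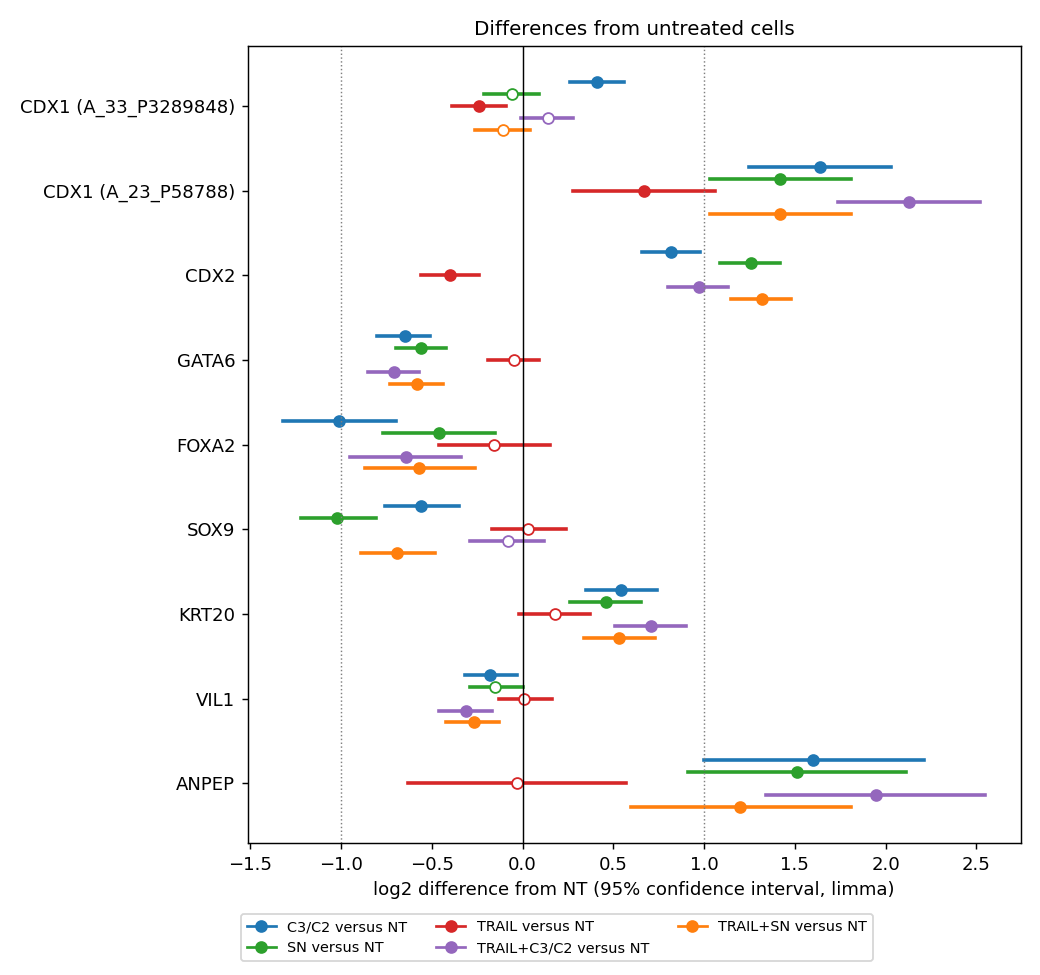
Log2 difference from NT (x axis) of the 9 tested probes in the 5 treatments, with the 95% confidence interval of limma; filled points passed an adjusted p of 0.05 and dotted lines mark a fold of 2. CDX2, KRT20, ANPEP and CDX1 probe A_23_P58788 lie to the right in all 4 groups with C3/C2 or SN, and GATA6 and FOXA2 to the left, while the TRAIL points lie within 0.67 of 0.

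CDX2, the homeobox factor that keeps intestinal identity in the adult gut, had group means that ranged over 1.72. In replicate order, its level was -0.99, -1.04, -1.08 and -0.99 in NT, -0.09, -0.21, -0.31 and -0.20 in C3/C2, and 0.18, 0.21, 0.31 and 0.23 in SN. It was -1.53, -1.31, -1.30 and -1.56 in TRAIL, 0.11, -0.15, -0.12 and -0.06 in TRAIL+C3/C2, and 0.18, 0.14, 0.43 and 0.41 in TRAIL+SN. All TRAIL arrays lay below all NT arrays, and all arrays of the other 4 treatments lay above them.

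CDX2 rose 1.77-fold with C3/C2 (difference 0.82, SE 0.08, adjusted p = 8.26e-09) and 2.39-fold with SN (1.26, SE 0.08, adjusted p = 7.49e-12). It fell 1.32-fold with TRAIL alone (-0.40, SE 0.08, adjusted p = 0.000529). With TRAIL present it was 1.96-fold above NT in TRAIL+C3/C2 (0.97, adjusted p = 4.98e-10) and 2.49-fold above NT in TRAIL+SN (1.32, adjusted p = 3.19e-12). With spike-in scaling these last differences were 0.25 (adjusted p = 0.0463) and 0.79 (adjusted p = 1.93e-06), the second no longer past a fold of 2, and with the array median TRAIL+C3/C2 gave 0.62 (adjusted p = 1.35e-05) and C3/C2 0.52 (adjusted p = 0.000124).

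The order of the CDX2 means was TRAIL (-1.43 ± 0.14, SD, n = 4), NT (-1.02 ± 0.04), C3/C2 (-0.20 ± 0.09), TRAIL+C3/C2 (-0.06 ± 0.12), SN (0.23 ± 0.06) and TRAIL+SN (0.29 ± 0.15). The neighbours C3/C2 and TRAIL+C3/C2 overlapped (adjusted p = 0.154), as did SN and TRAIL+SN (adjusted p = 0.663). SN exceeded C3/C2 by 0.44 (adjusted p = 0.000117), and TRAIL+SN exceeded TRAIL+C3/C2 by 0.35 (adjusted p = 0.00146, within a slide), each without overlap of the arrays. Within the slide that held SN and TRAIL, SN was 3.16-fold higher (1.66, adjusted p = 9.11e-14).

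Whether CDX2 also fell when TRAIL was added to the acids or the supernatant turned with the scale. The difference was 0.15 for TRAIL+C3/C2 minus C3/C2 and 0.06 for TRAIL+SN minus SN, neither past the test, but with spike-in scaling both were falls (-0.39, adjusted p = 0.00523, and -0.54, adjusted p = 0.000282). The interaction term, the co-treatment minus the sum of both single effects, was 0.55 with C3/C2 (95% confidence interval 0.32 to 0.78, adjusted p = 0.00768) and 0.46 with SN (0.23 to 0.69, adjusted p = 0.00543). CDX2 was the only one of the 9 probes past the adjusted p for either term, which 1.52% and 10.1% of all probes passed upwards and 0.905% and 11.5% downwards. Both terms lost the adjusted p when arrays were scaled by their median (0.40, adjusted p = 0.125, and 0.29, adjusted p = 0.144) or by the spike-in probes (0.29, adjusted p = 0.28, and 0.14, adjusted p = 0.544). The term with SN also missed it with normexp background correction (0.29, adjusted p = 0.0511), and both missed it with replicates 1 and 2, and 3 and 4, averaged (adjusted p = 0.294 and 0.11).

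CDX1, the paralogue of CDX2 that is expressed in the crypt, was read by 2 probes that disagreed. The dimmer probe, A_23_P58788, downstream of the stop codon, read -4.55, -5.01, -4.42 and -4.09 in NT, -3.03, -2.84, -2.69 and -2.95 in C3/C2, and -3.15, -3.44, -2.82 and -2.98 in SN. It read -4.00, -4.32, -3.60 and -3.48 in TRAIL, -2.43, -2.37, -2.43 and -2.32 in TRAIL+C3/C2, and -3.40, -3.15, -3.03 and -2.80 in TRAIL+SN. The NT arrays overlapped those of TRAIL and lay below all others.

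By this probe CDX1 rose 3.12-fold with C3/C2 (1.64, SE 0.19, adjusted p = 1.11e-07), 2.68-fold with SN (1.42, adjusted p = 7.16e-07), 4.39-fold with TRAIL+C3/C2 (2.13, adjusted p = 1.67e-09) and 2.68-fold with TRAIL+SN (1.42, adjusted p = 6.61e-07). It rose 1.59-fold with TRAIL (0.67, adjusted p = 0.0091). With normexp the differences were 0.87 in C3/C2, 0.78 in SN and 0.99 in TRAIL+SN, and with spike-in scaling 0.90 in TRAIL+SN, each past the adjusted p and under a fold of 2. TRAIL+C3/C2 exceeded TRAIL+SN by 1.64-fold (adjusted p = 0.00479, and 0.0777 with replicates averaged as above) without overlap, whereas SN and C3/C2 alone overlapped (SN minus C3/C2, -0.22, 95% confidence interval -0.61 to 0.17).

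The probe that ends in the stop codon, A_33_P3289848, read -0.46, -0.42, -0.70 and -0.33 in NT, 0.02, -0.10, -0.06 and -0.14 in C3/C2, and -0.45, -0.53, -0.68 and -0.51 in SN. It read -0.74, -0.71, -0.69 and -0.74 in TRAIL, -0.25, -0.34, -0.36 and -0.42 in TRAIL+C3/C2, and -0.57, -0.49, -0.69 and -0.61 in TRAIL+SN. Only the C3/C2 arrays stood clear of the NT arrays, and the arrays of SN and TRAIL+SN lay within the NT range.

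By this probe CDX1 was 1.33-fold above NT with C3/C2 (0.41, SE 0.07, adjusted p = 3.33e-05) and 1.18-fold below NT with TRAIL (-0.24, adjusted p = 0.0133). SN (-0.06, adjusted p = 0.442), TRAIL+C3/C2 (0.14, adjusted p = 0.0924) and TRAIL+SN (-0.11, adjusted p = 0.167) did not pass the test. The co-treatments were both below NT with the array median (-0.21, adjusted p = 0.00611, and -0.31, adjusted p = 0.00024) and with spike-in scaling (-0.58, adjusted p = 0.000164, and -0.64, adjusted p = 6.03e-05), which turns the direction for TRAIL+C3/C2. TRAIL thus moved the 2 CDX1 probes in opposite directions. Neither passed in every setting with TRAIL: the brighter probe missed the adjusted p with median scaling (-0.14, adjusted p = 0.103) and the dimmer with spike-in scaling (0.39, adjusted p = 0.131), and with replicates averaged as above both missed it (adjusted p = 0.11 and 0.112). SN lay 0.47 below C3/C2 (adjusted p = 1.64e-05) and TRAIL+SN 0.25 below TRAIL+C3/C2 (adjusted p = 0.00887, and 0.0826 with replicates averaged), and with spike-in scaling neither passed (-0.22, adjusted p = 0.14, and -0.06, adjusted p = 0.76). The rise with C3/C2 lost the adjusted p with arrays scaled by their median (0.11, adjusted p = 0.144) or by spike-in probes (0.23, adjusted p = 0.11).

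GATA6, a zinc finger factor of the endoderm that is active in intestinal progenitors, split the arrays into 2 sets. Its level was 1.94, 1.89, 2.02 and 1.91 in NT and 1.82, 1.88, 1.95 and 1.92 in TRAIL. It was 1.29, 1.24, 1.27 and 1.34 in C3/C2, 1.29, 1.28, 1.55 and 1.38 in SN, 1.20, 1.20, 1.19 and 1.34 in TRAIL+C3/C2, and 1.28, 1.36, 1.55 and 1.24 in TRAIL+SN. Each array with C3/C2 or SN lay below each array without them.

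GATA6 fell 1.57-fold with C3/C2 (-0.65, SE 0.07, adjusted p = 3.03e-08), 1.48-fold with SN (-0.56, adjusted p = 2.33e-07), 1.63-fold with TRAIL+C3/C2 (-0.71, adjusted p = 7.41e-09) and 1.5-fold with TRAIL+SN (-0.58, adjusted p = 1.27e-07). TRAIL alone gave -0.05 (adjusted p = 0.64), and -0.32 with spike-in scaling (adjusted p = 0.0259). The falls passed a fold of 2 with spike-in scaling in TRAIL+C3/C2 (-1.42) and TRAIL+SN (-1.11), and with the array median in TRAIL+C3/C2 (-1.05). SN minus C3/C2 was 0.09 (95% confidence interval -0.05 to 0.23) and TRAIL+SN minus TRAIL+C3/C2 was 0.12 (-0.02 to 0.27), neither past the test. With the array median both passed (0.26, adjusted p = 0.0282, and 0.28, adjusted p = 0.028), as they did with spike-in scaling (0.34, adjusted p = 0.0122, and 0.31, adjusted p = 0.0314).

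FOXA2, a forkhead factor that opens chromatin in endoderm and favours secretory fates, was lowest with C3/C2 on the scale of the 75th percentile. Its level was 2.17, 2.16, 2.71 and 2.78 in NT, 1.39, 1.44, 1.50 and 1.45 in C3/C2, and 1.92, 1.75, 2.26 and 2.03 in SN. It was 2.07, 2.10, 2.52 and 2.51 in TRAIL, 1.83, 1.73, 1.83 and 1.86 in TRAIL+C3/C2, and 1.77, 1.66, 2.10 and 2.02 in TRAIL+SN. C3/C2 and both co-treatments stood below all NT arrays, and SN and TRAIL overlapped with NT.

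FOXA2 fell 2.01-fold with C3/C2 (-1.01, SE 0.15, adjusted p = 3.5e-06), just past the fold of 2, and it was under that fold when NT replicate 3 (-0.92), NT replicate 4 (-0.90) or replicate 1 of C3/C2 (-0.99) was left out. It fell by 0.46 with SN (adjusted p = 0.0082), by 0.64 with TRAIL+C3/C2 (adjusted p = 0.000547) and by 0.57 with TRAIL+SN (adjusted p = 0.00163). With spike-in scaling the falls were larger in TRAIL+C3/C2 (-1.36, adjusted p = 1.37e-07) and TRAIL+SN (-1.09, adjusted p = 3.19e-06), both past a fold of 2, and TRAIL+C3/C2 was the lowest group (mean -1.32 against -1.16 in C3/C2 on that scale). SN lay 0.55 above C3/C2 (adjusted p = 0.00428), which missed the adjusted p with replicates averaged as above (0.0942), as did the fall with SN (0.101), while TRAIL+SN minus TRAIL+C3/C2 was 0.08 (95% confidence interval -0.23 to 0.38). In 6 of 6 groups replicates 1 and 2 were both below replicates 3 and 4 for FOXA2.

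SOX9, a factor of crypt progenitors that restrains differentiation, was lowest with SN on the scale of the 75th percentile. Its level was 0.16, 0.04, 0.15 and 0.35 in NT, -0.43, -0.35, -0.31 and -0.44 in C3/C2, and -0.95, -0.96, -0.79 and -0.65 in SN. It was 0.20, -0.09, 0.42 and 0.31 in TRAIL, 0.06, 0.10, 0.03 and 0.18 in TRAIL+C3/C2, and -0.58, -0.65, -0.34 and -0.47 in TRAIL+SN. The TRAIL+C3/C2 arrays overlapped those of NT, unlike the C3/C2 arrays.

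SOX9 fell 2.02-fold with SN (-1.02, SE 0.10, adjusted p = 6.89e-09), 1.47-fold with C3/C2 (-0.56, adjusted p = 3.61e-05) and 1.61-fold with TRAIL+SN (-0.69, adjusted p = 1.92e-06). TRAIL (0.03, adjusted p = 0.837) and TRAIL+C3/C2 (-0.08, adjusted p = 0.463) did not pass the test. TRAIL+C3/C2 was below NT with the array median (-0.43, adjusted p = 0.00119) and with spike-in scaling (-0.80, adjusted p = 6.03e-06), under which TRAIL+SN (-1.21, adjusted p = 1.58e-08) was lower than SN. The call with SN was lost on leaving out NT replicate 4 (-0.96), SN replicate 1 (-0.98) or SN replicate 2 (-0.97), and with spike-in scaling (-0.95) or normexp (-0.92). SN lay 0.46 below C3/C2 (adjusted p = 0.000608) and TRAIL+SN 0.61 below TRAIL+C3/C2 (adjusted p = 5.2e-05), and the arrays overlapped in neither comparison. With spike-in scaling SN minus C3/C2 was -0.21 and did not pass (adjusted p = 0.183).

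Adding TRAIL raised SOX9 over C3/C2 alone by 0.47 (adjusted p = 0.000696) and over SN alone by 0.33 (adjusted p = 0.0207). Of the 9 probes, 2 were higher and 1 was lower in TRAIL+C3/C2 than in C3/C2 at any size (21.4% and 13.2% of all probes), and SOX9 alone was higher in TRAIL+SN than in SN (11.9%), with none lower (7.78%). Both differences turned negative with spike-in scaling (-0.06 and -0.27), and the interaction terms of SOX9 (0.44, adjusted p = 0.1, and 0.30, adjusted p = 0.131) did not pass, although both did with the replicate number as a block (adjusted p = 0.0245 and 0.0494). The difference over SN alone missed the adjusted p with the array median (0.26, adjusted p = 0.0973) and with replicates averaged as above (0.207).

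**Figure D2:**
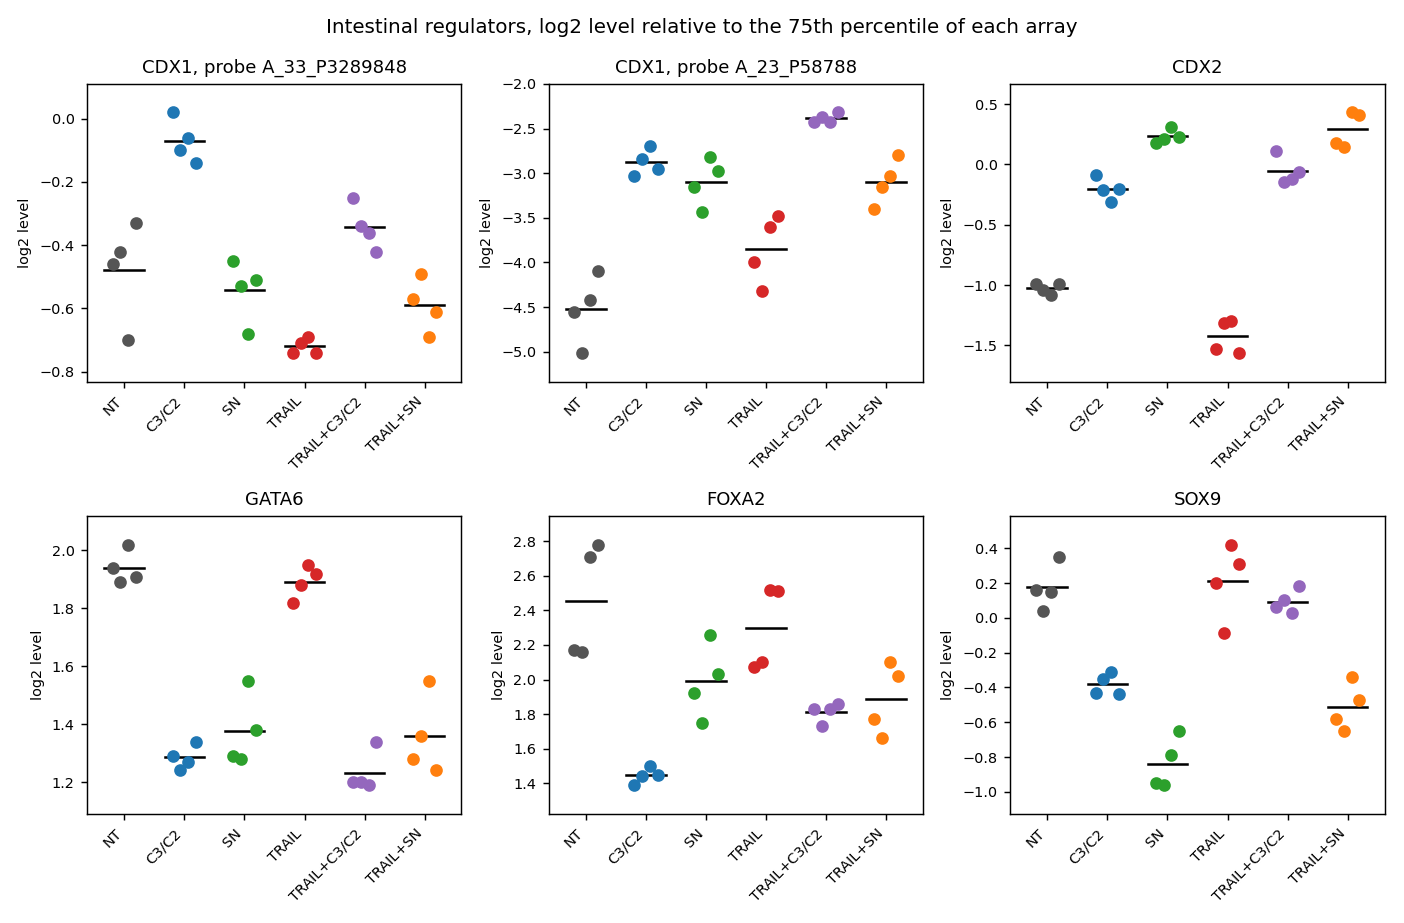
Log2 level (y axis, relative to the 75th percentile of each array) of the regulators CDX1 (2 probes), CDX2, GATA6, FOXA2 and SOX9 in the 6 groups; each point is an array in replicate order and each line a group mean. GATA6 separates the groups with C3/C2 or SN from NT and TRAIL, CDX2 is lowest in TRAIL, and SOX9 in TRAIL+C3/C2 lies at the NT level on this scale.

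ATOH1, which commits progenitors to goblet, enteroendocrine and Paneth fates, was near the limit of detection. Its spot stood well above background on 3 NT arrays, 2 TRAIL arrays, 1 SN array and no array of C3/C2, TRAIL+C3/C2 or TRAIL+SN. Its level was -5.80, -4.99, -4.50 and -4.21 in NT, -6.20, -7.80, -7.77 and -6.66 in C3/C2, and -7.32, -7.45, -4.79 and -7.30 in SN. It was -5.48, -5.37, -4.49 and -4.46 in TRAIL, -5.43, -7.24, -6.21 and -7.06 in TRAIL+C3/C2, and -6.94, -7.08, -7.16 and -5.99 in TRAIL+SN.

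All C3/C2 and TRAIL+SN arrays of ATOH1 lay below all NT arrays. Against the lowest signal well above background, ATOH1 was at least 1.80-fold lower in C3/C2, at least 1.18-fold lower in TRAIL+C3/C2 and at least 1.15-fold lower in TRAIL+SN. With normexp the mean of both co-treatments lay above NT instead (0.30 and 0.17), so their direction is not settled at this signal. Exact two-sided permutation tests of the levels against NT gave p = 0.0286 for C3/C2 and for TRAIL+SN, the smallest p that 4 arrays against 4 allow, 0.0571 for TRAIL+C3/C2, 0.0857 for SN and 0.914 for TRAIL. Adjusted over the 10 tests of ATOH1 and ALPI, the smallest of these exact permutation p-values was 0.143, so none passed.

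KRT20, the keratin of differentiated colonocytes and among the brightest probes here (98th percentile of mean level), rose in every group with C3/C2 or SN. Its level was 4.91, 4.93, 4.73 and 4.60 in NT, 5.43, 5.45, 5.23 and 5.22 in C3/C2, and 5.41, 5.36, 5.14 and 5.08 in SN. It was 5.00, 5.04, 4.92 and 4.91 in TRAIL, 5.62, 5.62, 5.36 and 5.38 in TRAIL+C3/C2, and 5.45, 5.39, 5.19 and 5.27 in TRAIL+SN. All arrays of these 4 groups lay above all NT arrays, and TRAIL overlapped with NT.

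KRT20 was 1.46-fold above NT with C3/C2 (0.54, SE 0.09, adjusted p = 3.29e-05), 1.37-fold with SN (0.46, adjusted p = 0.000188), 1.63-fold with TRAIL+C3/C2 (0.71, adjusted p = 9.01e-07) and 1.45-fold with TRAIL+SN (0.53, adjusted p = 3.09e-05). TRAIL alone gave 0.18 (adjusted p = 0.163), which passed with the replicate number as a block (adjusted p = 0.00339). The TRAIL difference also passed with the array median (0.28, adjusted p = 0.027), but was -0.10 with spike-in scaling (adjusted p = 0.666). With spike-in scaling the KRT20 differences were -0.01 in TRAIL+C3/C2, 0.01 in TRAIL+SN and 0.36 with C3/C2 (adjusted p = 0.053). With the array median the KRT20 means were 9.52 in TRAIL+C3/C2 and 9.51 in TRAIL+SN, against 9.17 in NT. The rise in the co-treatments therefore turned with the scale, and which scale is right was not tested. With SN a rise remained on the spike-in scale (mean level 2.90 against 2.37 in NT). SN minus C3/C2 was -0.08 (95% confidence interval -0.28 to 0.11). TRAIL+SN minus TRAIL+C3/C2 was -0.17 (-0.37 to 0.03, adjusted p = 0.162), which passed with the replicate number as a block (adjusted p = 0.00356). In 6 of 6 groups replicates 1 and 2 of KRT20 were both above replicates 3 and 4.

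ANPEP, aminopeptidase N, a peptidase of the brush border, was dim, and only 2 of 4 NT arrays, 1 TRAIL array and 3 TRAIL+SN arrays were well above background, against 4 of 4 in the other groups. Its level was -5.30, -5.53, -6.33 and -5.95 in NT, -4.13, -3.77, -4.54 and -4.28 in C3/C2, and -4.01, -3.99, -4.44 and -4.64 in SN. It was -5.71, -5.70, -6.74 and -5.10 in TRAIL, -3.56, -3.75, -3.84 and -4.18 in TRAIL+C3/C2, and -4.35, -4.33, -5.15 and -4.48 in TRAIL+SN. NT and TRAIL lay below all arrays of C3/C2, SN and TRAIL+C3/C2.

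In the fit ANPEP was higher by 1.60 with C3/C2 (SE 0.29, adjusted p = 5.07e-05), by 1.51 with SN (adjusted p = 8.69e-05), by 1.95 with TRAIL+C3/C2 (adjusted p = 3.86e-06) and by 1.20 with TRAIL+SN (adjusted p = 0.000826), while TRAIL gave -0.03 (adjusted p = 0.95). The NT mean behind these values rests in part on 2 arrays that were not well above background. With those 2 arrays raised to the lowest signal well above background, the fold over NT was 2.56 in C3/C2, 2.40 in SN, 3.25 in the TRAIL+C3/C2 group and 1.94 in TRAIL+SN. With normexp background correction the differences were 0.47 with C3/C2, 0.59 with SN and 0.74 with TRAIL+SN, under the fold of 2 but past the adjusted p. The rise with TRAIL+SN was 0.68 with spike-in scaling (adjusted p = 0.0623). With quantile scaling it was 0.98 (adjusted p = 0.00147), under the fold of 2. SN minus C3/C2 was -0.09 (95% confidence interval -0.70 to 0.51), and TRAIL+SN lay 0.74 below TRAIL+C3/C2 (adjusted p = 0.048), a difference that missed the adjusted p in 7 of 8 fits without 1 array and with replicates averaged as above (0.117).

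VIL1, villin, which bundles actin in microvilli, was lower in both co-treatments. Its level was 4.00, 4.07, 4.04 and 3.94 in NT, 3.95, 3.83, 3.76 and 3.79 in C3/C2, and 4.01, 3.98, 3.72 and 3.75 in SN. It was 4.05, 4.15, 3.94 and 3.95 in TRAIL, 3.72, 3.78, 3.63 and 3.65 in TRAIL+C3/C2, and 3.77, 3.77, 3.67 and 3.75 in TRAIL+SN. It fell by 0.31 with TRAIL+C3/C2 (adjusted p = 0.000393) and by 0.27 with TRAIL+SN (adjusted p = 0.00137), without overlap with NT. These falls were larger with the array median (-0.66 and -0.47) and with spike-in scaling (-1.03, adjusted p = 9.07e-07, past a fold of 2, and -0.80). With replicates averaged as above TRAIL+SN missed the adjusted p (0.0575). C3/C2 gave -0.18 (adjusted p = 0.0288, lost in 5 of 8 fits without 1 array and with replicates averaged, 0.208, and -0.48 with the array median) and TRAIL 0.01 (adjusted p = 0.901). SN gave -0.15 (adjusted p = 0.0651), which passed with the replicate number as a block (adjusted p = 0.013). It also passed with the array median (-0.28, adjusted p = 0.00531), normexp (-0.20, adjusted p = 0.0129) and quantile scaling (-0.22, adjusted p = 0.00998). With spike-in scaling the VIL1 mean was 1.51 in SN against 1.59 in NT. The differences of SN from C3/C2 (0.03, 95% confidence interval -0.11 to 0.18) and of TRAIL+SN from TRAIL+C3/C2 (0.04, -0.10 to 0.19) did not pass the test.

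ALPI, intestinal alkaline phosphatase, was well above background on 9 of 24 arrays, namely 3 of NT, 3 of C3/C2, none of SN and 1 each of TRAIL, TRAIL+C3/C2 and TRAIL+SN. Its mean level was -5.50 ± 0.50 (SD, n = 4) in NT, -5.25 ± 0.40 in C3/C2, -5.87 ± 0.19 in SN, -5.85 ± 0.55 in TRAIL, -5.41 ± 0.30 in TRAIL+C3/C2 and -5.30 ± 0.58 in TRAIL+SN. Exact two-sided permutation tests against NT gave p between 0.257 and 0.80, so that no difference was detectable on this scale. The unadjusted exact permutation p was 0.0286 for SN with quantile scaling (-0.48). It was also 0.0286 with normexp for TRAIL+C3/C2 (0.55) and TRAIL+SN (0.57).

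ALPPL2, a phosphatase related to ALPI and nearly identical to the placental phosphatase ALPP, had a mean level of 0.59 ± 0.15 (SD, n = 4) in NT and 3.3 ± 0.24 in C3/C2. It was 2.71 above NT with C3/C2 (SE 0.09, adjusted p = 9.43e-16), 2.25 above NT with TRAIL+C3/C2 (adjusted p = 1.16e-14) and 0.69 above NT with SN (adjusted p = 1.29e-06). The probes of such near-identical copies may share signal. ALPP differed by 0.34 with C3/C2 (adjusted p = 0.00455) and by -0.43 with SN (adjusted p = 0.000539).

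**Figure D3:**
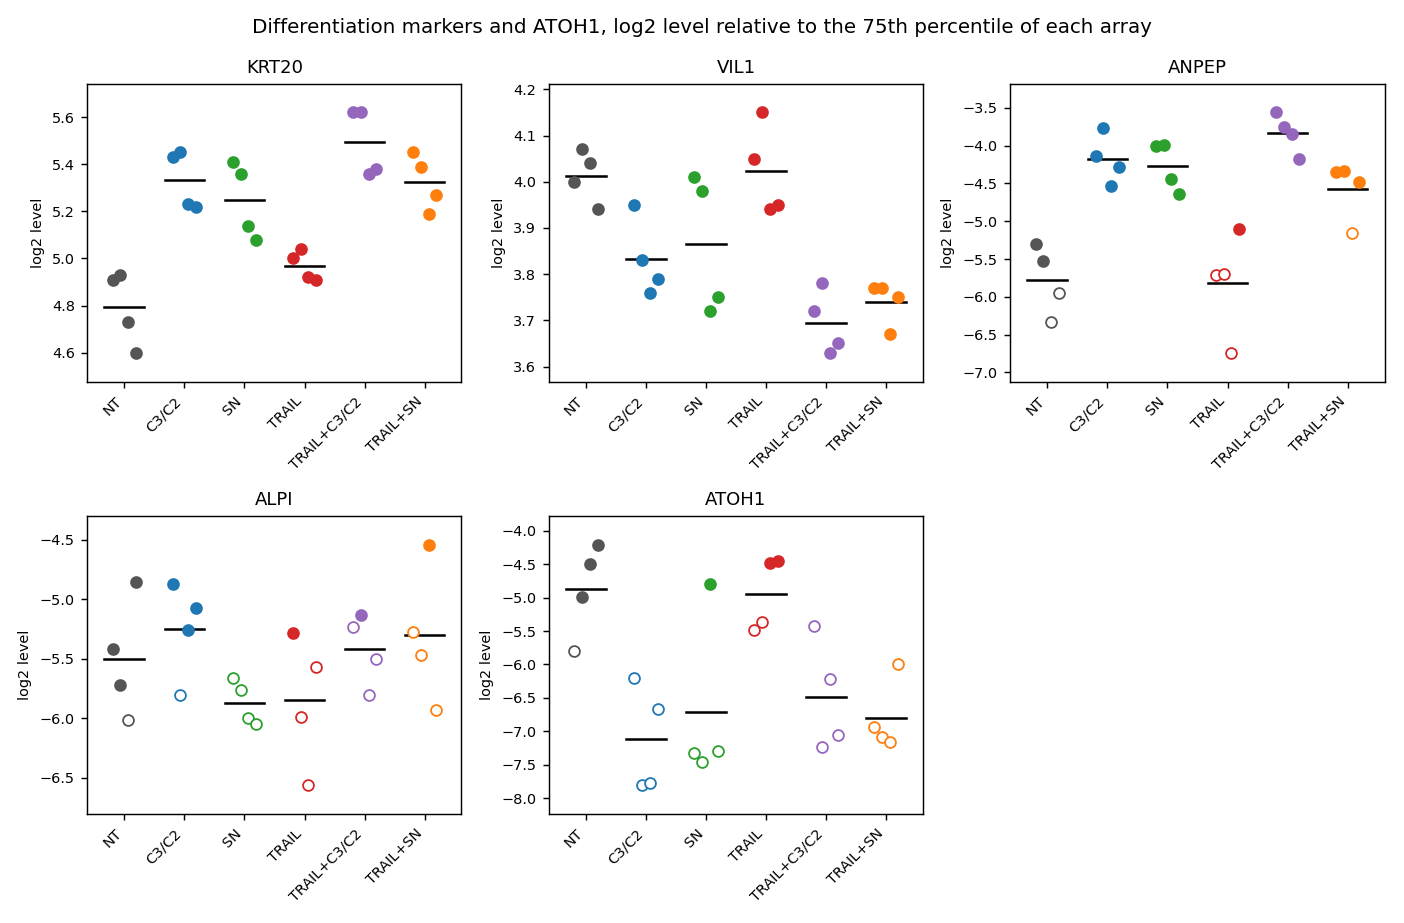
Log2 level (y axis, relative to the 75th percentile of each array) of KRT20, VIL1, ANPEP, ALPI and ATOH1 in the 6 groups; each point is an array in replicate order, filled where the spot was well above background and open where it was not, and lines are group means. ANPEP and KRT20 are higher in the groups with C3/C2 or SN, VIL1 is lowest in both co-treatments, and ATOH1 is open on all arrays of 3 groups.

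In the direct comparisons of supernatant with acids, limma called no probe of these genes at a fold of 2, against 1.21% of all probes higher and 4.28% lower for SN minus C3/C2, and 0.984% and 2.50% for TRAIL+SN minus TRAIL+C3/C2. At any size, 4 of 9 probes passed the adjusted p and also an unadjusted p of 0.05 for SN against C3/C2 (2 higher and 2 lower, against 21.4% and 24.1% of all probes), and 5 of 9 for TRAIL+SN against TRAIL+C3/C2 (1 higher and 4 lower, against 15.7% and 21.4%). Against TRAIL on the same slide, SN gave 2 calls higher (12.9% of all probes), for CDX2 and ANPEP (1.54, adjusted p = 7.35e-05). It gave 1 call lower (8.05%), for SOX9 (-1.05, adjusted p = 4.71e-09, and -0.98 without TRAIL replicate 3). The SOX9 call was also lost with spike-in scaling (-0.70) and normexp (-0.90), and the ANPEP call with normexp (0.35). At any size 5 were higher and 3 lower (32.4% and 34.0% of all probes).

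Other genes of the same programmes were read from lists of names that do not include the 10 genes. Among 43 brush border and enterocyte genes, 27 were tested, of which 5 were called higher in C3/C2 (13.3% of all probes were), 7 in SN (14.1%), 9 in the TRAIL+C3/C2 group (16.4%) and 8 in TRAIL+SN (16.1%), and none lower. At any size, 15 were higher and 1 was lower with C3/C2 (34.9% and 28.3% of all probes), and 15 and 1 with SN (35.2% and 33.8%). In TRAIL+C3/C2 14 were higher and 2 lower (40.2% and 29.4%), and in TRAIL+SN 17 and 3 (37.8% and 32.6%). The list's median difference was 0.45, 0.55, 0.38 and 0.64 in the same order of groups, against 0.07, -0.01, 0.10 and 0.05 over all probes. With TRAIL alone 3 were higher and 5 lower at any size (19.3% and 12.1% of all probes), with a median of 0.00.

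ESPN, espin, an actin bundler of microvilli, rose by 2.29 with SN (SE 0.14, adjusted p = 3.57e-12) and by 2.06 with TRAIL+SN (adjusted p = 1.71e-11). CDHR5, a cadherin that links microvilli, rose by 1.57 with TRAIL+SN (adjusted p = 9.27e-08). CA4, a membrane carbonic anhydrase, was above background on no NT array and at least 2.49-fold higher with C3/C2 and at least 2.45-fold higher with TRAIL+C3/C2. ABCB1, a drug efflux pump of the apical membrane, was above background on no NT array and on 3 SN arrays. With NT arrays raised to the lowest signal well above background it was 1.45-fold higher with SN. The SN mean holds an array not well above background, so this is not a strict bound.

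Among 22 endoderm and intestinal transcription factors, 16 were tested, and 3 were called higher and 5 lower with C3/C2 (13.3% and 6.22% of all probes), 3 and 5 with SN (14.1% and 9.69%), 3 and 4 with TRAIL+C3/C2 (16.4% and 8.12%), and 4 and 5 with TRAIL+SN (16.1% and 10.2%). The list's median difference was 0.07, -0.15, 0.22 and -0.05 in the same order. FOXA1, the paralogue of FOXA2, fell by 2.13 with C3/C2 (SE 0.23, adjusted p = 5.93e-08), by 2.78 with SN (adjusted p = 8.27e-10), fell by 2.40 with TRAIL+C3/C2 (adjusted p = 8.33e-09) and fell by 2.77 with TRAIL+SN (adjusted p = 7.61e-10).

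GATA5, the paralogue of GATA6, was above background on no NT array and on all 4 arrays of each of these treatments. It was at least 4.62-fold higher with C3/C2, 3.56-fold with SN, 3.15-fold with TRAIL+C3/C2 and 3.5-fold with TRAIL+SN. SOX2, a factor of the stomach and oesophagus that the adult intestine normally lacks, was above background on 1 of 4 NT arrays and on all arrays of C3/C2, SN and TRAIL+C3/C2. With the other 3 NT arrays raised to the lowest signal well above background, SOX2 was 6.80-fold higher with C3/C2 (adjusted p = 3.49e-09 in the fit), 3.05-fold with SN (adjusted p = 1.12e-06) and 5.40-fold with TRAIL+C3/C2 (adjusted p = 1.34e-08). ELF3, an epithelial ETS factor, rose by 1.94 with TRAIL+SN (SE 0.05, adjusted p = 3.68e-18).

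Among 30 secretory lineage genes, 29 were on the array and 21 were tested. With C3/C2 2 were called higher and 3 lower (13.3% and 6.22% of all probes), with SN 3 and 3 (14.1% and 9.69%), with TRAIL+C3/C2 5 and 2 (16.4% and 8.12%), and with TRAIL+SN 4 and 2 (16.1% and 10.2%). The list's median difference was -0.35, -0.16, -0.16 and -0.11 in the same order. INSM1, a factor of endocrine cells, was above background on all 4 NT arrays and on no array of these treatments. It was at least 2.70-fold lower with C3/C2, 2.30-fold with SN, 1.76-fold with TRAIL+C3/C2 and 1.73-fold with TRAIL+SN. SPDEF, a goblet cell factor, fell by 1.45 with C3/C2 (adjusted p = 6.6e-11) and by 1.03 with SN (adjusted p = 1.09e-08).

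POU2F3, the factor of tuft cells, was above background on 1 of 4 NT arrays and on all 16 arrays with C3/C2 or SN. With the other 3 NT arrays raised in the same way, POU2F3 was 2.69-fold higher with C3/C2 (adjusted p = 2.55e-06 in the fit), 2.49-fold with SN (adjusted p = 4.86e-06), 2.98-fold with TRAIL+C3/C2 (adjusted p = 7.53e-07) and 2.63-fold with TRAIL+SN (adjusted p = 2.58e-06). TRPM5, a cation channel of the same cells, rose by 1.20 with C3/C2 (adjusted p = 3.58e-06), by 1.47 with TRAIL+C3/C2 (adjusted p = 1.86e-07), by 1.02 with TRAIL+SN (adjusted p = 2.44e-05) and by 0.65 with SN (adjusted p = 0.00241, under a fold of 2). JAG1, a Notch ligand counted in this list, rose by 1.70 with SN (adjusted p = 1.43e-10) and by 2.19 with TRAIL+SN (adjusted p = 2.21e-12).

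Among 19 crypt and stem cell genes, 18 were tested, of which 1 was called higher and 3 lower with C3/C2 (13.3% and 6.22% of all probes), 3 and 4 with SN (14.1% and 9.69%), 2 and 5 with TRAIL+C3/C2 (16.4% and 8.12%), and 3 and 4 with TRAIL+SN (16.1% and 10.2%). The list's median difference was -0.18, -0.12, -0.12 and -0.20 in the same order. MYC, the proliferation factor, fell by 1.89 with C3/C2 (SE 0.12, adjusted p = 7.01e-12) and by 1.83 with SN (adjusted p = 9.4e-12). LGR5, the stem cell receptor, fell by 1.82 with SN (adjusted p = 2.23e-07), by 1.44 with TRAIL+C3/C2 (adjusted p = 5.75e-06) and by 2.49 with TRAIL+SN (adjusted p = 1.79e-09), where 2 of 4 arrays were above background. ASCL2, a stem cell factor, fell by 1.69 with TRAIL+SN (adjusted p = 1.23e-11), BMI1 fell by 1.39 with TRAIL+C3/C2 (adjusted p = 4.77e-10) and RNF43, which limits Wnt receptors, fell by 1.20 with C3/C2 (adjusted p = 5.26e-07).

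Against this direction, EPHB2, an ephrin receptor of the crypt base, rose by 2.51 with C3/C2 (SE 0.15, adjusted p = 5.42e-12), by 2.61 with SN (adjusted p = 2.36e-12), by 2.5 with TRAIL+C3/C2 (adjusted p = 4.66e-12) and by 2.34 with TRAIL+SN (adjusted p = 1.2e-11). EPHB3 rose by 1.03 with TRAIL+C3/C2 (adjusted p = 1.97e-10), and LRIG1, which restrains growth factor receptors in stem cells, rose by 1.34 with SN (adjusted p = 2.21e-15) and by 1.27 with TRAIL+SN (adjusted p = 4.01e-15). With TRAIL alone 2 crypt genes were lower (12.1% of all probes) and none was higher (19.3%) past the adjusted p of limma, at any size.

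**Figure D4:**
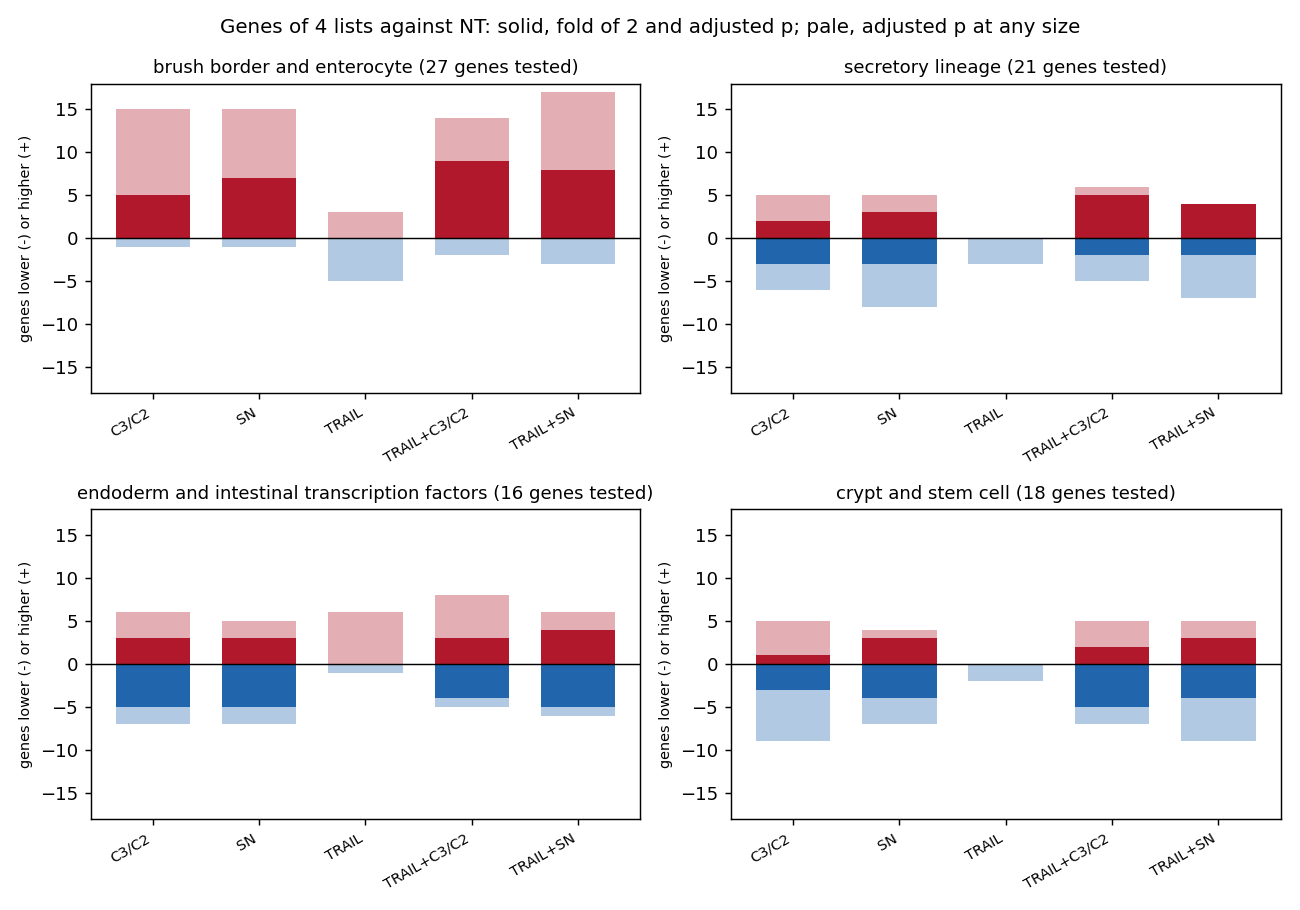
Number of genes higher (up) or lower (down) than NT in each treatment (x axis) for 4 lists of genes; solid bars count a fold of 2 with an adjusted p under 0.05 and pale bars the adjusted p at any size. In the brush border list 5 to 9 genes are called higher and none lower in the groups with C3/C2 or SN, while the other lists move in both directions.

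Among 5449 named genes whose group means ranged over at least 1 on the log2 scale, the genes whose 6 group means followed CDX2 most closely were GAL3ST4 (Pearson r = 0.997), SIK1 (0.995) and SPATA6 (0.995). For SOX9 they were EDN1 (0.988), ST7-OT4 (0.978) and HIST2H2AC (0.972). For FOXA2 they were PCDHB11 (0.972), PLA2G4F (0.967) and FAM83E (0.965), and for GATA6 FANCC, PGGT1B and TTC12 (each 0.999). These are descriptions over 6 group means of the same arrays, picked as the closest of many.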

How the data were processed

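The authors labelled RNA with Cy3, hybridised it to Agilent whole human genome arrays of 60-base probes and deposited the intensity of each spot from Feature Extraction (10.7.3.1 per the file headers), background-subtracted, with spatial trends removed and a surrogate value in place of signals not above background, but not normalized between arrays. A series-wide file by the authors holds these intensities divided by the array median, and its 24 columns of flags were not used. No saturated spot was found.

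Control spots and outlier spots were left out, replicate spots were averaged, and log2 levels were set relative to the 75th percentile per array. Probes were fitted if some group had all 4 arrays well above background, using limma 3.58.1 (R 4.3.3, statmod 1.5.0, data.table version 1.17.8): 6 group means, 18 residual degrees of freedom, eBayes, Benjamini-Hochberg adjustment over 27953 probes. The fit was tested on simulated data. A fold against a group with no array above background is a bound, set by the lowest signal well above background on each array. It is not a strict bound for ATOH1 and ABCB1, whose brighter group also held an array not well above background. Figures were drawn with matplotlib 3.10.9 (Python 3.11.15).

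The genes and lists were chosen with earlier results of these data known. From each list, the 2 largest rises and 2 largest falls called per treatment were named, with all arrays on a single side of NT; some of these are not reported here. ALPPL2 and ALPP with SN were added after their values were seen.

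Arrays with the same replicate number, in 60 pairs between groups, deviated together (correlation of residuals 0.052 to 0.448, median 0.195, 52 pairs over 0.1). Every pair was over 0.1 in all comparisons except both co-treatments against NT, so the numbers were taken to pair the arrays in the former. The main fit did not use this pairing, so its standard errors and p-values are unpaired. The pairing entered only as the replicate block among the alternatives. The number of arrays limits the precision: the standard error of a log2 difference had a median of 0.11. Alternatives covered scaling (array median, spike-in probes, quantile), normexp background correction with an offset of 50, filters, probes per gene, groups fitted, replicate and slide blocks, thresholds and leaving out each array, and, added after seeing the data, averaging replicates 1 with 2 and 3 with 4.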

Additional observations from a re-analysis of the deposited data

Results flagged for a closer look

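ATOH1 in SN replicate 3 read -4.79 while the other 3 SN arrays lay between -7.45 and -7.30, and it was the only SN array well above background for this gene. GATA6 in TRAIL+C3/C2 replicate 4 read 1.34 against 1.19 to 1.20 on the other 3 arrays of that group. Of 66 sets of 4 arrays examined (11 probes in 6 groups), these 2 had a sample this far from the rest, and chance alone gives about 1 in 20.

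CDX2 differed in its response to TRAIL with and without the other treatment on the scale of the 75th percentile. The interaction was 0.55 with C3/C2 and 0.46 with SN. Both terms missed the adjusted p of limma with the array median (adjusted p = 0.125 and 0.144), with spike-in scaling (0.28 and 0.544) and with replicates 1 and 2, and 3 and 4, averaged (0.294 and 0.11), and the term with SN with normexp (0.0511), so the difference is not settled. The 4 groups of each term lay on 4 slides, so that slide and treatment cannot be told apart.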

How the results depend on the processing

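Levels on another scale have another zero, so only differences were compared. Of 81 differences of these genes (all against NT, both of supernatant minus acids, the others past the adjusted p, and all of CDX2 and SOX9), 76 kept their direction and their side of the threshold with the replicate number as a block, 5 newly passed (given beside their results) and none was lost; the number of probes called against NT was again 3 in C3/C2, 4 in SN, 0 in TRAIL, 2 in TRAIL+C3/C2 and 3 in TRAIL+SN. Under slide as a random block 80 were kept, under quantile scaling 70, under normexp 62, under the array median 56 and under spike-in scaling 36, the causes of which were not tested. With replicates 1 and 2, and 3 and 4, averaged, an alternative chosen after seeing the data, 64 kept their side, 17 missed the threshold with 6 residual degrees of freedom and none reversed; of the 57 past the adjusted p, 40 stayed past it. For C3/C2 against NT, 9 of 9 were kept with slide as a fixed block or on slide 2 alone, and slide 1 (1 array of each) gave the same signs, among them 0.90 for CDX2 and -0.77 for FOXA2. With no minimum fold the probes past the threshold became 9, 7, 3, 7 and 8 against NT, 4 for SN minus C3/C2, 5 for TRAIL+SN minus TRAIL+C3/C2, 8 for SN minus TRAIL, 3 for TRAIL+C3/C2 minus C3/C2, 1 for TRAIL+SN minus SN and 1 for each interaction. With normexp 1 probe was called for C3/C2, SN and TRAIL+SN against NT and for SN minus TRAIL. For TRAIL+C3/C2 5 were called with spike-in scaling. On that scale the median of all probes in this comparison was -0.61, and the calls of VIL1, GATA6 and FOXA2 were falls. For the same comparison 1 was called with a filter on all 24 arrays, which drops ANPEP, or with 1 probe per gene, which drops the dimmer CDX1 probe. Shares of all probes with no minimum fold are those given above at any size. For normexp, spike-in scaling and these filters no such share is given, so their counts do not set these genes apart from the array. Leaving out 1 array gave 2 to 3 calls for C3/C2, 3 to 4 for SN and 2 to 3 for SN minus TRAIL. Directions reversed with spike-in scaling for KRT20 in TRAIL+C3/C2 (-0.01) and in TRAIL+SN minus TRAIL+C3/C2 (0.02), for VIL1 in SN minus TRAIL (0.18), for the dimmer CDX1 probe (-0.04) and SOX9 (-0.06) in TRAIL+C3/C2 minus C3/C2, for SOX9 in TRAIL+SN minus SN (-0.27) and its interaction with SN (-0.03), for CDX2 in TRAIL+C3/C2 minus C3/C2 (-0.39) and TRAIL+SN minus SN (-0.54), and for the brighter CDX1 probe in SN (0.01) and TRAIL+C3/C2 (-0.58). The array median gave -0.05 for the brighter CDX1 probe in SN minus TRAIL, -0.21 for it in TRAIL+C3/C2 and -0.01 for CDX2 in TRAIL+SN minus SN. Differences near 0 between TRAIL and NT reversed for KRT20 (-0.10, spike-in), VIL1 (-0.26, -0.04 and -0.11, spike-in, normexp and quantile), ANPEP (0.07, 0.24 and 0.06, array median, normexp and quantile), SOX9 (-0.24 and -0.02, spike-in and normexp) and GATA6 (0.05, array median), and leaving out 1 array gave -0.03 to 0.04 for VIL1, -0.27 to 0.28 for ANPEP and -0.04 to 0.13 for SOX9. In SN minus C3/C2, reversals were 0.03 (dimmer CDX1 probe, spike-in), 0.09 and 0.17 (KRT20, array median and spike-in), -0.01 (VIL1, quantile) and 0.08, 0.16, 0.12 and 0.09 (ANPEP, array median, spike-in, normexp and quantile), and leaving out 1 array gave -0.02 to 0.08 for VIL1 and -0.21 to 0.04 for ANPEP. ALPI against NT, not past any test, reversed to -0.05 (array median) and -0.06 (quantile) in C3/C2, 0.03 in SN and 0.25 in TRAIL (normexp), -0.26, -0.63 and -0.30 in TRAIL+C3/C2 (array median, spike-in, quantile) and -0.33 and -0.03 in TRAIL+SN (spike-in, quantile). ATOH1 reversed to 0.03, 0.19 and 0.04 in TRAIL (array median, normexp, quantile), 0.30 in TRAIL+C3/C2 and 0.17 in TRAIL+SN (normexp). Signal near background limits ALPI, ATOH1 and ANPEP.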
